A study of Mus musculus with 7 samples.

Results

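The antioxidant and thiol-defence genes described here are 48 genes named in a fixed list, all of which were present among the 55487 genes of the deposited brown adipose tissue table. They encode superoxide dismutases and catalase, peroxiredoxins, thioredoxins, glutathione peroxidases, the enzymes that make and recycle glutathione, glutaredoxins, glutathione transferases, metallothioneins and the NRF2 regulators. Each of the 48 passed the filter on low counts, so every member was tested. RNA was measured by sequencing in 7 mice of the autoimmune-prone diabetic strain NOD/ShiLtJ. The CB-100 group (4 mice) received the fraction above 100 kDa of buffer conditioned by brown adipocytes (imBAT), at 1.5 mg per kg of body weight under the skin for 7 days. The sham group (3 mice) received KRBH buffer, and its labels repeat the CB-100 injection text, the 7 days included, with no amount of buffer. Both groups are described as mice with a blood glucose of 190 to 230 mg/dL, and tissue was taken between 2 and 8 weeks after injection, the week of each mouse not being given. Titles of CB-100 samples also carry the code nd and those of sham samples d, which the labels do not explain, and this code cannot be told apart from the injection. No age is given, and nothing but the animal codes in the titles says that the samples are separate mice. The p-values here set the group difference against the spread of these samples and assume that the samples are independent.

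Superoxide dismutases turn superoxide into hydrogen peroxide, which catalase, peroxiredoxins and glutathione peroxidases then remove. Peroxiredoxins are recharged by thioredoxin and glutathione peroxidases by glutathione, and both thiol systems draw on NADPH. Brown adipocytes are rich in mitochondria and oxidize much fat, so they hold these enzymes in the cytosol, mitochondria and peroxisomes. NRF2, held back by KEAP1, raises the transcription of many of these genes, whereas metallothioneins are small metal-binding proteins raised by zinc and by glucocorticoids.

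Brown fat of CB-100 mice held less RNA for 12 of the 48 genes and more for 1, whereas 3.70% of all tested genes changed. Mgst3, Txn1, Gsto1, Gstp1, Cat, Prdx2, Gstk1, Sod1, Mt1, Prdx1, Gstm1 and Gclc fell by 1.60-fold (Gclc) to 3.06-fold (Mgst3), and Sod3, the extracellular superoxide dismutase, rose 2.65-fold. The 35 other members did not pass edgeR's quasi-likelihood test at a Benjamini-Hochberg adjusted p of 0.05 over all 16823 genes tested; 31 of them had estimates below 0 and 4 above. The called members that fell were 25.0% of the list, against 2.28% of all tested genes, and against 3.37% of the 8187 protein-coding genes with a mean of at least 10 CPM (counts scaled to a common library size and normalized for composition). The 1 called member that rose was 2.08% of the list, against 1.42% of all tested genes and 1.67% of those protein-coding genes. In 22 members (45.8%) each CB-100 library lay below each sham library, as in 12.2% of all tested genes and 16.9% of the protein-coding genes at 10 CPM or more. Over the 48 members the median log2 change was -0.53, beside 0.03 over all tested genes. The members were picked with earlier results of these data known, so these shares describe the list and do not test it.

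**Figure D1:**
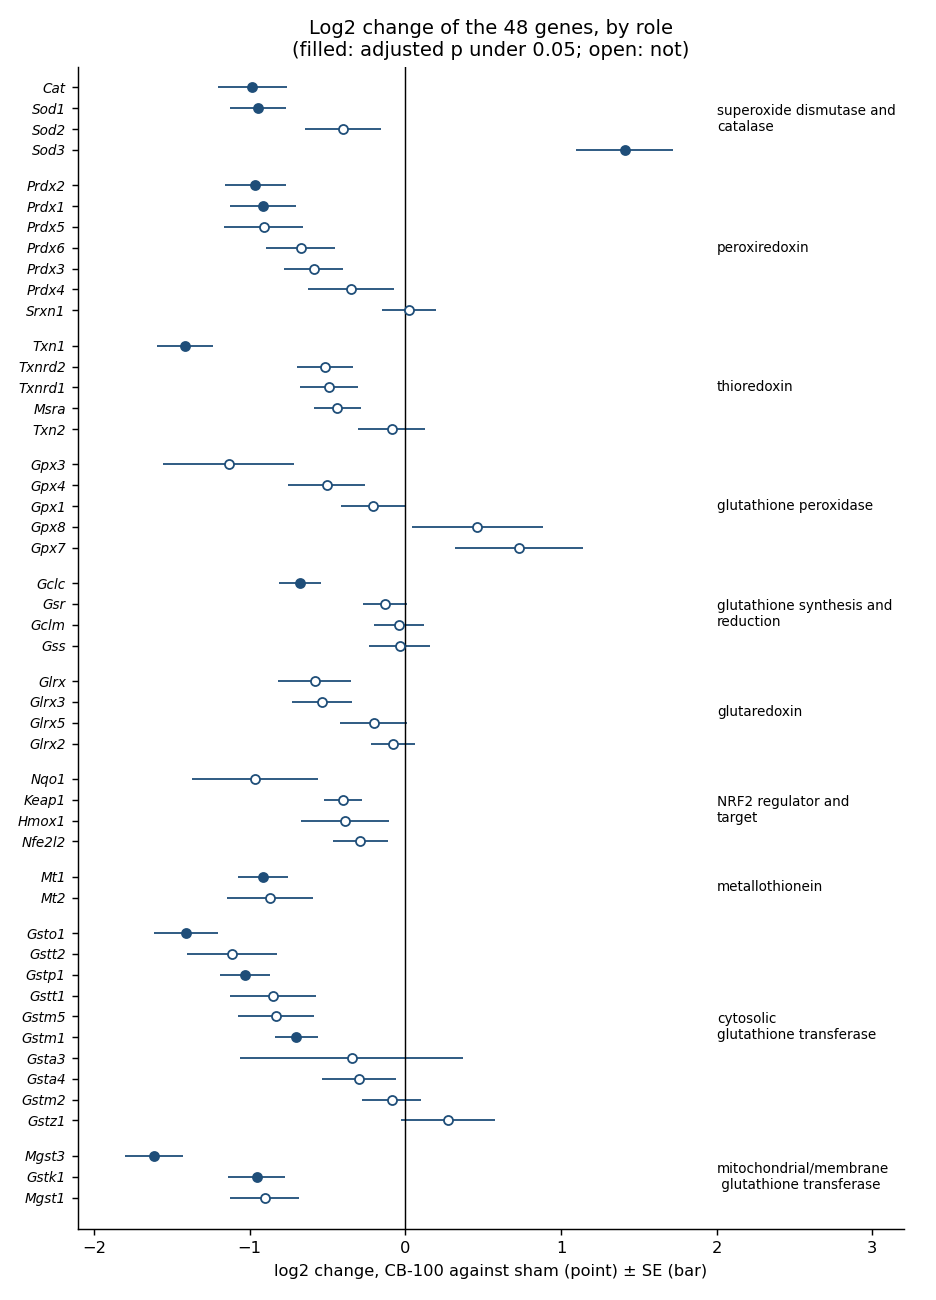
Log2 change of each of the 48 genes in CB-100 against sham (x axis), with bars of 1 SE, grouped by role. Filled points passed the adjusted p threshold, and of these Sod3 lies to the right of 0 and the 12 others to the left.

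**Figure D2:**
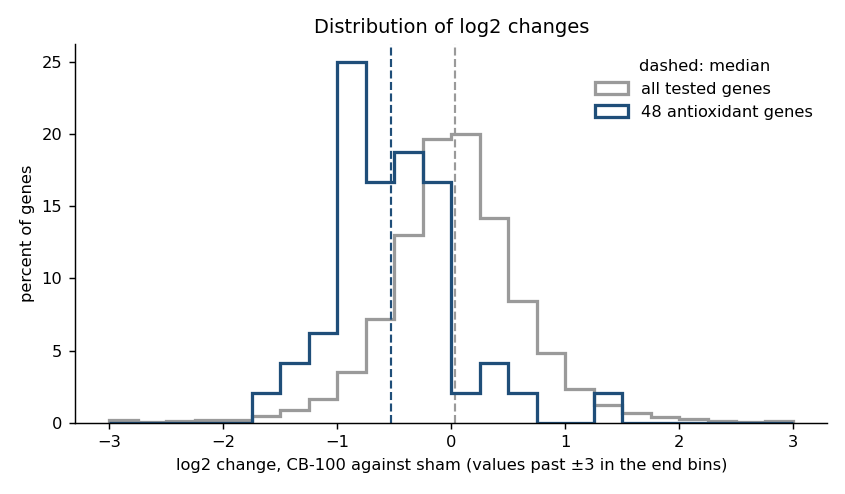
Percent of genes (y axis) by log2 change in CB-100 against sham (x axis) for all 16823 tested genes and for the 48 antioxidant genes. The dashed medians stand at 0.03 and -0.53.

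The 7 libraries held 10815101 to 28528471 counts, and the number of mice rather than the depth limits the precision. Read from Xist and Y-linked genes, each group held 1 male (CB-100 replicate 3 and sham replicate 3). Protein-coding genes took 76.2% to 80.0% of the counts in CB-100 and 83.0% to 86.5% in sham, without overlap, and genes of the mitochondrial genome 22.3% to 36.3% against 14.3% to 22.8%. The part of these shares in the results was not tested. Summed CPM of 14 skeletal muscle markers ran from 350 to 2502 in CB-100 and 919 to 2048 in sham, and with a muscle score as covariate no member passed in edgeR (19 of 48 lower at an unadjusted p under 0.05), nor did more than 10 of all 16823 genes. Brown adipocyte markers (14 of 14 tested) summed to 2494 to 5055 CPM in CB-100 and 2257 to 3506 CPM in sham, with Ucp1 at 46.1 CPM in sham replicate 3 and at 2237 CPM in CB-100 replicate 1. Of 12 marker lists 3 did not overlap between the groups. Schwann cell markers were at 98.4 to 134 CPM in CB-100 and 58.2 to 69.6 CPM in sham, with S100b called higher, neutrophil markers (1 of 6 tested) at 0.64 to 2.37 against 3.23 to 8.07 CPM, and fibroblast markers are given beside Sod3. Their part in the results was not tested, and the 9 other lists overlapped with 0 genes called. Among these, adipocyte markers (8 of 8 tested) summed to 6701 to 8562 CPM in CB-100 and 7364 to 10301 CPM in sham. Of that list, Adipoq and Lipe were lower in each CB-100 library (log2 changes -0.91 and -0.66, adjusted p = 0.051 and 0.13 by edgeR). Fabp4, Cidec, Pparg and Cd36 overlapped with estimates below 0, and Plin1 and Plin4 with estimates above 0. The part of the adipocyte markers was not tested either. In bulk tissue, fewer cells of a type and less RNA per cell cannot be told apart. Members were shorter than most genes, with 26 of 48 in the shortest of 4 equal exon-length classes of tested protein-coding genes, a class whose median log2 change was -0.10. After a correction for exon length and GC content the members' median was -0.58, with 10 called lower and 0 higher.

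The number of called members depended on the libraries included. Without CB-100 replicates 1, 2, 3 or 4 it was 3, 0, 5 and 11, and without sham replicates 1, 2 or 3 it was 2, 7 and 0. Calls over all genes dropped in the same fits, from 622 to 97, 24, 187 and 610, and to 14, 319 and 8. Mgst3 stayed called in 5 of these 7 fits, Txn1, Gsto1 and Gstp1 in 4, Mt1 in 2, Cat in 0 and each of the other 7 called members in 1. All 13 kept their direction in each fit, which follows from groups that do not overlap, and the median over the 48 ran from -0.65 (without sham replicate 1) to -0.47 (without sham replicate 3). In the 5 females alone, edgeR called 0 members (21 lower at an unadjusted p under 0.05) and 0 of 17134 genes, 2578 of them at an unadjusted p under 0.05. With sex as covariate it called 6 members, all lower, of 238 genes. On all 7 libraries DESeq2 called 18 members lower and limma voom 14, each with Sod3 the 1 higher, among 1968 and 1213 genes called in all.

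Superoxide dismutases moved in opposite directions. Sod1, the copper and zinc dismutase of the cytosol, stood at 112, 72.6, 96.1 and 93.7 CPM in CB-100 replicates 1 to 4 and at 153, 188 and 199 CPM in sham replicates 1 to 3. The groups did not overlap, and Sod1 fell by 0.94 on the log2 scale (SE 0.18, adjusted p = 0.035 by edgeR). It lies at chromosome 16, 90220754 to 90226329, on the plus strand of GRCm38, with whole counts. Sod1 overlaps Scaf4 on the other strand, so part of its reads could belong there.

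Sod3, the secreted dismutase of the extracellular matrix, went the other way. Its level was 248, 118, 159 and 186 CPM in CB-100 and 46.0, 94.3 and 60.8 CPM in sham, a log2 change of 1.41 (SE 0.31, adjusted p = 0.047 by edgeR). Every CB-100 library was above every sham library, with sham replicate 2 the closest. The gene lies at chromosome 5, 52363791 to 52371418, with no overlapping gene model and whole counts throughout. Its call held in 1 of the 7 fits that left out a library (without sham replicate 2, log2 change 1.73), with log2 changes of 1.19 to 1.73 over those fits, and it was lost with the length and GC correction and with sex as covariate. Fibroblast and preadipocyte markers (8 of 8 tested, 0 called) also had a higher sum in each CB-100 library than in any sham library. The sums were 941 to 1935 CPM against 391 to 913 CPM. Most of this came from the collagen genes Col3a1, Col1a1 and Col1a2 (CB-100 means of 665, 345 and 290 CPM). Dcn, of the same list, was lower in each CB-100 library (log2 change -0.74, adjusted p = 0.055 by edgeR). Pdgfra, Lum, Dpt and Pi16 overlapped between the groups, with estimates above 0. The part of these markers in the Sod3 difference was not tested.

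The mitochondrial dismutase Sod2 did not pass. It stood at 489, 310, 400 and 293 CPM in CB-100 and 372, 540 and 562 CPM in sham, with overlapping groups (log2 change -0.40, SE 0.24, adjusted p = 0.35 by edgeR). Catalase, the peroxisomal enzyme that splits hydrogen peroxide, is encoded by Cat at chromosome 2, 103453849 to 103485160, on the minus strand. Cat was at 381, 247, 364 and 255 CPM in CB-100 and at 568, 572 and 707 CPM in sham. It fell by 0.98 (SE 0.22, adjusted p = 0.048 by edgeR), with no overlap but close to the threshold, and no fit that left out a library called it (log2 changes of -1.09 to -0.88).

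Among the peroxiredoxins, 2 of 7 genes of the group fell and 0 rose, with a median log2 change of -0.67. Prdx2, a cytosolic peroxiredoxin abundant in red cells, was at 58.8, 57.5, 82.1 and 63.3 CPM in CB-100 and at 97.3, 132 and 154 CPM in sham, and fell by 0.96 (SE 0.20, adjusted p = 0.038 by edgeR). Prdx1, another cytosolic form, was at 58.1, 53.3, 61.1 and 92.3 CPM against 108, 123 and 144 CPM, and fell by 0.91 (SE 0.21, adjusted p = 0.049 by edgeR). For both genes the groups were apart, with the highest CB-100 library of Prdx1 (replicate 4) the nearest to sham. Prdx2 (chromosome 8, 84969587 to 84974834) overlaps Junb and Rnaseh2a on the opposite strand and has non-whole counts, and is uncertain, whereas Prdx1 (chromosome 4, 116685544 to 116700822) overlaps none.

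Erythroid markers overlapped between the groups. Their sum (7 of 8 found, 6 tested, 0 called) ran from 881 to 4551 CPM in CB-100 and from 788 to 2204 CPM in sham, highest in CB-100 replicate 4. Their part in the Prdx2 and Cat differences was not tested. Of the other members of the group, Prdx5, found in mitochondria and peroxisomes, had a log2 change of -0.91 (adjusted p = 0.073 by edgeR) without overlap, though its counts are non-whole. Prdx3, the mitochondrial form, gave -0.59, Prdx6, which also has phospholipase activity, -0.67, and Prdx4, of the endoplasmic reticulum, -0.35. Srxn1, the sulfiredoxin that repairs overoxidized peroxiredoxins, gave 0.02 (SE 0.17).

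Txn1, the cytosolic thioredoxin, had one of the largest differences in the list. It stood at 19.0, 20.3, 20.9 and 28.2 CPM in CB-100 and at 51.3, 55.3 and 70.5 CPM in sham. The lowest sham library was thus well above the highest CB-100 library, and Txn1 fell 2.66-fold (log2 change -1.41, SE 0.18, adjusted p = 0.020 by edgeR). Its locus is chromosome 4, 57943373 to 57956411 (minus strand), with whole counts and no overlapping model. Txn1 was the 1 call among the 5 genes of its group. Txn2, the mitochondrial thioredoxin, gave a log2 change of -0.09 (SE 0.21, adjusted p = 0.84 by edgeR).

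The thioredoxin reductases, selenoenzymes that recharge thioredoxin from NADPH, did not pass. Txnrd1, of the cytosol, stood at 61.1, 61.6, 53.1 and 41.5 CPM in CB-100 against 70.3, 64.7 and 93.8 CPM in sham, apart by a narrow margin (log2 change -0.49, adjusted p = 0.16 by edgeR). Txnrd2, of mitochondria, gave -0.52, and Msra, which reduces oxidized methionine, -0.44, both without overlap between the groups.

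Ratios of partner genes within a library do not depend on how libraries are scaled, and 7 such ratios were compared by a two-sided exact permutation test, in which the labels can be arranged in 35 ways. The log2 ratio of Txn1 to Txn2 was -1.44 ± 0.16 (SD, n = 3) in sham but -2.75 ± 0.60 (SD, n = 4) in CB-100, lower by 1.31 without overlap (exact p = 0.0571, BH-adjusted p = 0.10 over 7 ratios). For Sod1 to Sod2 the difference was -0.55 (exact p = 0.0571, BH-adjusted p = 0.10), again without overlap. The ratio of Sod3 to Sod1 differed by 2.37, from -1.48 ± 0.42 (SD, n = 3) in sham to 0.89 ± 0.22 (SD, n = 4) in CB-100 (exact p = 0.0286, the smallest that 35 arrangements can give, BH-adjusted p = 0.10). None passed after adjustment. Ratios of Txnrd1 to Txnrd2 (0.04, exact p = 0.971), Glrx to Glrx2 (-0.53, exact p = 0.0857) and Mt1 to Mt2 (-0.15, exact p = 0.629) overlapped between the groups. The pairs were chosen after the members' values had been seen.

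**Figure D3:**
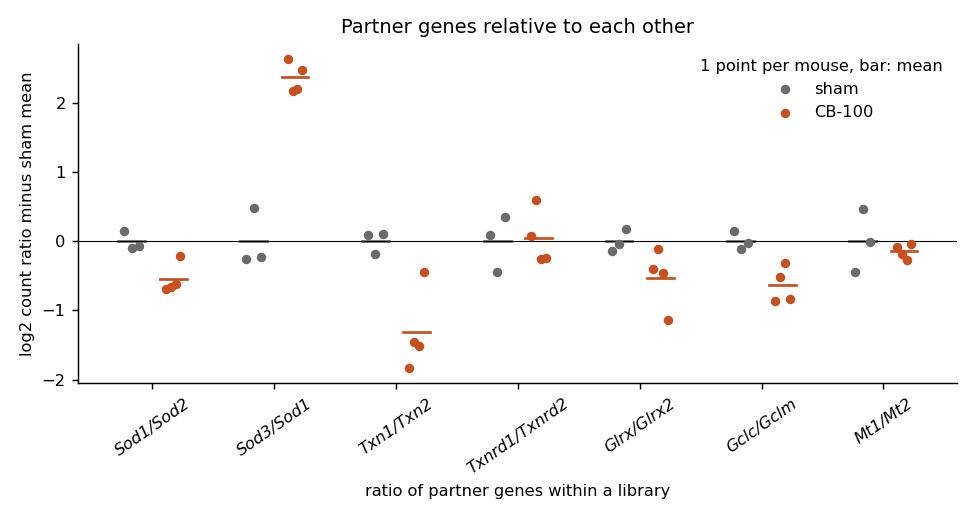
Log2 ratio of the counts of partner genes within each library, minus the sham mean (y axis), for 7 ratios (x axis), with 1 point per mouse and bars at group means. The CB-100 points of Sod3/Sod1 lie above all sham points, and those of Sod1/Sod2, Txn1/Txn2 and Gclc/Gclm lie below them.

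Glutathione is made in 2 steps, and the first and limiting one is run by glutamate-cysteine ligase, with Gclc as its catalytic and Gclm as its modifier subunit. Gclc was at 15.7, 20.2, 17.3 and 17.1 CPM in CB-100 and at 28.5, 26.8 and 28.9 CPM in sham. Its values were tight in both groups, and Gclc fell by 0.68 (SE 0.13, adjusted p = 0.036 by edgeR). Gclm stood at 16.0, 16.3, 12.2 and 17.2 CPM against 14.6, 16.4 and 16.6 CPM, a log2 change of -0.04 (SE 0.16, adjusted p = 0.90 by edgeR). The log2 ratio of Gclc to Gclm was thus 0.82 ± 0.13 (SD, n = 3) in sham but 0.19 ± 0.26 (SD, n = 4) in CB-100, without overlap (difference -0.63, exact permutation p = 0.0571, BH-adjusted p = 0.10). Gclc lies at chromosome 9, 77754535 to 77794485, with whole counts and no overlapping model. Gclm overlaps Gm6061 on the same strand and Gm17494 on the opposite strand and has non-whole counts in 2 libraries, so its counts are uncertain.

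Gsr, the reductase that regenerates glutathione, had values of 29.0, 23.3, 30.3 and 23.7 CPM in CB-100 and 28.2, 29.0 and 29.8 CPM in sham (log2 change -0.13, SE 0.14). Gss, the glutathione synthetase of the other step, gave -0.04 (SE 0.20) and is overlapped by Acss2. Neither passed, so that Gclc was the 1 call of the 4 genes of synthesis and reduction.

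Gpx3, the secreted glutathione peroxidase, was the most abundant member per length of exon, at 2784 CPM per kb in sham and 1269 CPM per kb in CB-100, ahead of Gpx4 (251 and 177) and Cat (236 and 119). It took 27.5% to 61.3% of all normalized counts of the 48 genes, depending on the library. Without Gpx3, the other 47 genes summed to 2423 to 3397 CPM in CB-100 and 3563 to 4673 CPM in sham, so the groups were apart on that sum too. The level of Gpx3 was 1974, 3841, 2382 and 1002 CPM in CB-100 and 4161, 4725 and 6258 CPM in sham. The groups did not overlap, but CB-100 replicate 2 came near sham replicate 1, and Gpx3 did not pass in edgeR (log2 change -1.13, SE 0.42, adjusted p = 0.15), while DESeq2 called it (adjusted p = 0.033).

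Among the 5 glutathione peroxidases 0 passed in edgeR, with 1 (Gpx3) at an unadjusted p under 0.05, 1 passed in DESeq2 and 0 in limma voom. Gpx4, which protects membranes from lipid peroxides, stood at 330, 236, 395 and 259 CPM in CB-100 and 321, 530 and 447 CPM in sham (log2 change -0.51, adjusted p = 0.25 by edgeR), with non-whole counts. Gpx1, the common cytosolic form, gave -0.21 (SE 0.21). Gpx7 and Gpx8, peroxidases of the endoplasmic reticulum, had the largest estimates above 0 in the list after Sod3. Gpx7 was low, at 3.94, 5.39, 4.17 and 5.67 CPM against 1.35, 5.08 and 2.35 CPM (log2 change 0.73, SE 0.41, adjusted p = 0.31 by edgeR), and its log2 change was 0.37 without sham replicate 1 and 1.36 without sham replicate 2. Gpx8 gave 0.46 (SE 0.42).

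Glutathione transferases join glutathione to reactive compounds, and 5 of the 13 in the list fell while 0 rose. Mgst3, a microsomal form, had the largest difference among the members. It stood at 9.66, 10.1, 13.1 and 10.4 CPM in CB-100 and 24.9, 37.0 and 37.7 CPM in sham, a log2 change of -1.61 (SE 0.19, adjusted p = 0.015 by edgeR). Mgst3 lost its call without CB-100 replicate 2 or without sham replicate 3. Its locus is chromosome 1, 167371966 to 167393841 (minus strand), with whole counts and no overlapping model. Mgst1, its relative of mitochondrial and microsomal membranes, was at 111, 93.9, 87.4 and 162 CPM against 209, 207 and 224 CPM, just outside the threshold (log2 change -0.91, adjusted p = 0.055 by edgeR).

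Gstk1, the transferase of mitochondria and peroxisomes, was at 15.3, 9.59, 13.1 and 13.9 CPM in CB-100 and 22.5, 24.2 and 29.0 CPM in sham, and fell by 0.96 (SE 0.18, adjusted p = 0.035 by edgeR). All 3 genes of this membrane or mitochondrial group thus kept the treatment groups apart, and 2 passed. Gstk1 lies at chromosome 6, 42245935 to 42250447.

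Of the 10 cytosolic transferases, 3 fell. Gsto1, of the omega class, was at 34.3, 27.9, 34.2 and 22.0 CPM in CB-100 and 68.9, 66.9 and 99.8 CPM in sham, a 2.66-fold decrease (log2 change -1.41, SE 0.21, adjusted p = 0.022 by edgeR). Gstp1, of the pi class, was at 26.8, 25.1, 29.5 and 29.3 CPM against 43.5, 64.9 and 61.1 CPM and fell by 1.03 (SE 0.16, adjusted p = 0.023 by edgeR). Gstm1, of the mu class, was at 88.9, 67.4, 76.3 and 78.0 CPM against 119, 128 and 131 CPM and fell by 0.70 (SE 0.14, adjusted p = 0.037 by edgeR). In all 3 the groups were well apart. Gsto1 (chromosome 19, 47854970 to 47864790) overlaps Cfap43 on the opposite strand. Gstp1 (chromosome 19, 4035407 to 4037985) has non-whole counts and near-identical neighbours. Gstm1 (chromosome 3, 108012255 to 108017973) belongs to a close family. The counts of these 3 genes are thus uncertain, though those of Gsto1 and Gstm1 are whole in every library.

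Among the 7 cytosolic transferases that did not pass, Gstt2, of the theta class, had the largest difference (log2 change -1.11, SE 0.29, adjusted p = 0.065 by edgeR) and kept the groups apart, as did Gstm5, of the mu class (-0.83, adjusted p = 0.085 by edgeR). Gstt1, also of the theta class, gave -0.85 with overlap. Gsta4, which acts on products of lipid peroxidation, gave -0.30, Gsta3, of the same class, -0.35 at low counts, and Gstm2, of the mu class, -0.09. Gstz1, which also acts in tyrosine breakdown, gave 0.27 (SE 0.30), the only estimate above 0 among the 13 transferases.

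Glutaredoxins reduce protein disulfides with glutathione or carry iron-sulfur clusters, and 0 of 4 passed in edgeR, limma voom or DESeq2 (2 at an unadjusted p under 0.05 in edgeR, Glrx and Glrx3). Glrx3, which has the smallest p of the group, was at 41.5, 29.3, 49.5 and 32.0 CPM in CB-100 and 57.4, 48.7 and 59.7 CPM in sham, overlapping by 1 library (log2 change -0.54, SE 0.19, adjusted p = 0.13 by edgeR). Glrx, the cytosolic form, gave -0.58, Glrx5, of mitochondrial cluster assembly, -0.20 and Glrx2, the mitochondrial form, -0.08.

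**Figure D4:**
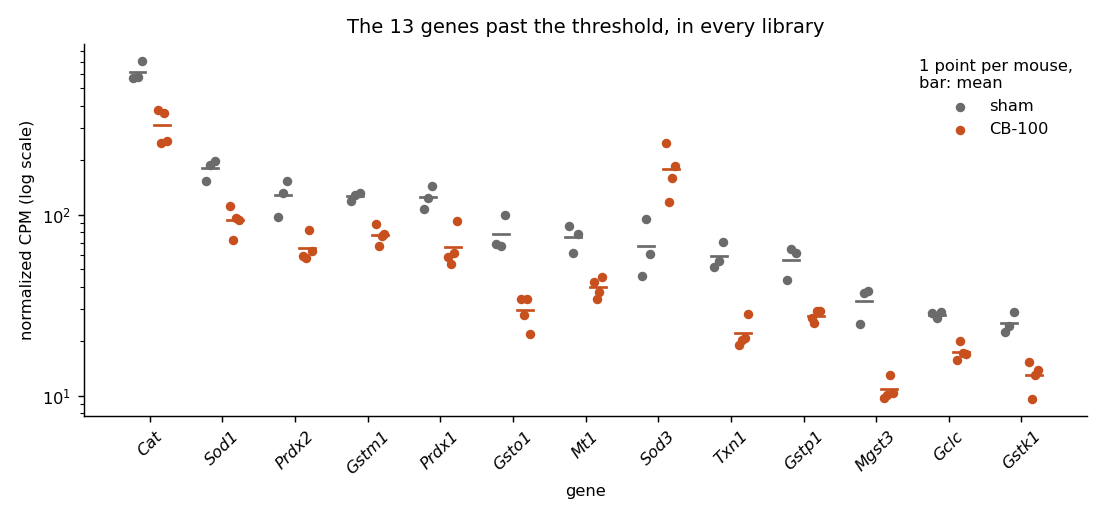
Normalized CPM on a log axis (y axis) for the 13 genes past the threshold (x axis), with 1 point per mouse and bars at group means. Each CB-100 point lies below all sham points of its gene, except in Sod3, where each lies above.

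Of the 4 NRF2 genes, 0 passed in edgeR, in DESeq2 and in limma voom (2 at an unadjusted p under 0.05 in edgeR, Keap1 and Nqo1). Nfe2l2, which encodes NRF2, was at 41.6, 31.8, 36.6 and 52.8 CPM in CB-100 and 49.6, 47.3 and 52.6 CPM in sham (log2 change -0.29, SE 0.18, adjusted p = 0.34 by edgeR). Keap1, its inhibitor, was at 36.3, 34.8, 31.4 and 31.0 CPM against 43.0, 41.9 and 47.1 CPM, apart but short of the threshold (log2 change -0.40, SE 0.12, adjusted p = 0.096 by edgeR). Both the factor and its inhibitor thus had estimates below 0.

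Nqo1, a quinone reductase widely used as an NRF2 target, was near the limit of detection at 0.79, 0.64, 0.93 and 1.77 CPM in CB-100 and 2.34, 2.40 and 1.50 CPM in sham. Its groups overlapped in 1 library of each (log2 change -0.96, SE 0.41, adjusted p = 0.19 by edgeR). Hmox1, the inducible heme oxygenase, was at 3.94, 4.20, 3.67 and 7.58 CPM against 5.88, 6.94 and 6.35 CPM, where CB-100 replicate 4 was above all sham libraries (log2 change -0.39, SE 0.28, adjusted p = 0.43 by edgeR).

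Promoter sequence is shown for called members that hold the motif NRF2 binds with small MAF proteins (the antioxidant response element) or the motif of the zinc-sensing factor MTF1 (the metal response element). Windows of 250 bases before to 50 bases after each start, from RefSeq on GRCm38.p6, were searched on both strands for TGACNNNGC, and for TGCACNC or TGCGCNC. Of the 48 members 40 had an entry, with 52 windows. The first motif was in 19.2% of these windows and 12.4% of all 32851 windows, and either form of the other in 28.8% against 25.7%. Among the 11 called members with an entry, 2 held the first motif (Sod1 and Prdx1) and 3 the other (Mt1, Gstk1 and Gstm1). Mt1 held 3 matches of the latter, and 1.97% of all windows held at least 3. Among members not called, Mt2 held 4 matches of the latter and 1 of the first motif, and Gclm 3 and 1. Of the 40 members with an entry, called or not, 10 held the first motif and 13 the other. Those in Mt1 began 23 bases before the RefSeq start and 2 and 20 bases after it. A match is a description of letters, not of binding. Capitals mark the matches in Sod1 (chr16:90220512-90220811), Prdx1 (chr4:116685349-116685648), Mt1 (chr8:94178839-94179138) and Gstk1 (chr6:42245685-42245984). All of these windows are written along the plus strand, on which the genes lie. The matches in Mt1 and Gstk1 are on this strand. Those in Sod1 and Prdx1 are on the minus strand, so their capitals show the reverse complement of the motif.
Sod1: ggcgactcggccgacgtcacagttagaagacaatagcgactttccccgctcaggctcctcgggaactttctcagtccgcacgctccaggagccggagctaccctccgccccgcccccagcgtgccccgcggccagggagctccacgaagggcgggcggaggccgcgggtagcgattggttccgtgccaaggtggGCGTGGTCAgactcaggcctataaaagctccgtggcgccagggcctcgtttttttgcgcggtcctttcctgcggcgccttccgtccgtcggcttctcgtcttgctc
Prdx1: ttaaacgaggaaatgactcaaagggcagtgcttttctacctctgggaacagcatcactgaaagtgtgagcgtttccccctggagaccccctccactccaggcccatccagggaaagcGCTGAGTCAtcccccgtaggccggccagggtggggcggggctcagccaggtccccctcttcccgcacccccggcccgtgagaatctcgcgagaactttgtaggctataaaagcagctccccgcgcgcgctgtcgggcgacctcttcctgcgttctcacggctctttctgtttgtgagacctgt
Mt1: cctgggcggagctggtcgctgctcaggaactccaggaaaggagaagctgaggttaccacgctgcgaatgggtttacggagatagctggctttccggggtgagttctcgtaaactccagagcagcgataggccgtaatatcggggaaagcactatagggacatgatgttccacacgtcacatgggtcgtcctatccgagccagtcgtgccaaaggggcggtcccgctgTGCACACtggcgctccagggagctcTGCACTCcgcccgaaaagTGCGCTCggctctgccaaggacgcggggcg
Gstk1: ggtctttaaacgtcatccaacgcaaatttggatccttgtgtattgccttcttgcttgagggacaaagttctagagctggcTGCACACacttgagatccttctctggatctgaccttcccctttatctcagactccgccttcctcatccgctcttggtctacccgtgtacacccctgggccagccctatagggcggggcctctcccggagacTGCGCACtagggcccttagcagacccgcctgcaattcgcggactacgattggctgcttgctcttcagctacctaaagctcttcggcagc

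Of the 2 metallothionein genes, Mt1 fell and Mt2 did not pass in edgeR. On all 7 libraries DESeq2 called both lower, and limma voom called Mt1 alone. Mt1, whose promoter is shown above with its metal response motifs, was at 42.6, 34.3, 37.2 and 45.2 CPM in CB-100 and 86.1, 61.4 and 78.3 CPM in sham, without overlap. It fell by 0.92 (SE 0.16, adjusted p = 0.031 by edgeR) and lies at chromosome 8, 94179082 to 94180327. Its neighbour Mt2 (chromosome 8, 94172664 to 94173568) was at 17.6, 15.2, 17.4 and 18.1 CPM in CB-100, a narrow band. In sham, Mt2 was spread over 45.7, 17.3 and 30.7 CPM, and replicate 2 lay inside the CB-100 range. Mt2 has non-whole counts in 6 libraries and overlaps Gm45774 on the opposite strand, so its counts are uncertain. Mt2 did not pass (log2 change -0.87, SE 0.28, adjusted p = 0.10 by edgeR), with -0.50 (adjusted p = 0.28 by edgeR) without sham replicate 1 and -1.16 (adjusted p = 0.037 by edgeR) without sham replicate 2. Mtf1, which encodes the zinc-sensing activator of both genes, gave -0.09 (SE 0.16, adjusted p = 0.78 by edgeR).

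In 9 of 10 listed glucocorticoid-responsive genes the highest of the 3 sham libraries was replicate 1, as in Mt1 and Mt2. The exception was Pdk4, a metabolic kinase gene highest in sham replicate 3. How often sham replicate 1 was the highest over all tested genes was not counted, so the 9 of 10 has no background beside it. Fkbp5, which encodes a chaperone partner of the receptor, was at 113, 27.3 and 30.5 CPM in sham and at 8.59, 11.3, 7.62 and 10.5 CPM in CB-100, and Tsc22d3, another such gene, at 92.3, 53.7 and 55.4 CPM against 28.0, 38.2, 37.6 and 47.6 CPM. Sham replicate 1 was the highest of the 7 libraries in Mt1, Mt2, Fkbp5 and Tsc22d3. Of the 10 genes 1 fell (Fkbp5, 10% of the list) and 0 rose, beside 2.28% and 1.42% of all tested genes. Estimates of the 10 genes were below 0 in 8 and above 0 in 2, Sgk1 (log2 change 0.85) and Errfi1 (0.16). Their summed level was 1112 to 1598 CPM in CB-100 and 2834 to 3236 CPM in sham, most of it from Pdk4 (group means of 954 and 2154 CPM), and the sum was highest in sham replicate 3. Their part in the Mt1 difference was not tested, and without sham replicate 1 the log2 change of Mt1 was -0.82 (adjusted p = 0.09 by edgeR).

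**Figure D5:**
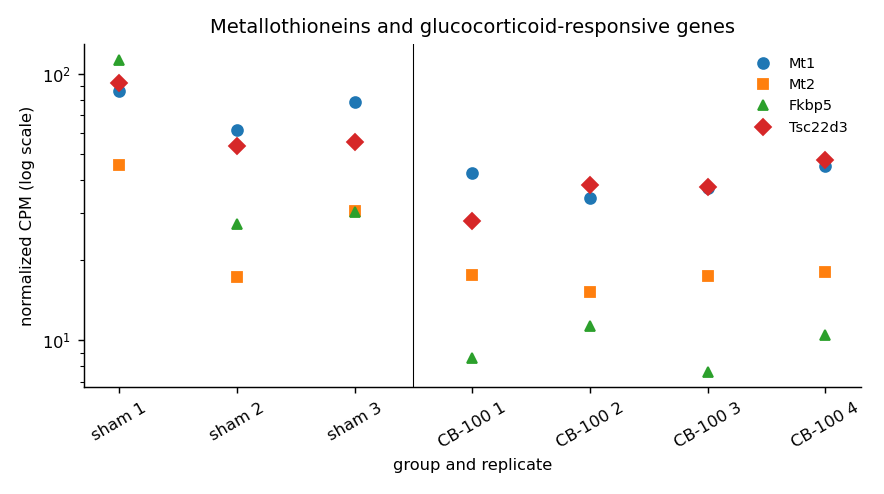
Normalized CPM on a log axis (y axis) of Mt1, Mt2, Fkbp5 and Tsc22d3 in each of the 7 libraries (x axis). Sham replicate 1 is the highest library for all 4 genes, and Mt2 in sham replicate 2 (17.3 CPM) lies within the CB-100 values.

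Beyond the members, 102 other genes of thiol, NADPH, metal and selenium handling were read from the same fit, of which 93 were tested, 7 fell, 1 rose and 85 did not pass. Those that fell were 7.53% of the 93 and the 1 that rose 1.08%, beside 2.28% and 1.42% of all tested genes, and their median log2 change was -0.25, beside 0.03. Txnip, which binds and inhibits thioredoxin and follows glucose, fell from 1885, 1859 and 2908 CPM in sham to 861, 967, 860 and 669 CPM in CB-100 (log2 change -1.40, SE 0.26, adjusted p = 0.033 by edgeR). Txnip and Txn1, inhibitor and target, were thus both lower, although Txnip counts are non-whole and overlap an opposite model. Nxn, a thioredoxin-like nucleoredoxin, was the gene that rose, with a log2 change of 1.01 (SE 0.22, adjusted p = 0.046 by edgeR).

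The other 6 genes that fell came from several branches. Pgls, the lactonase of the pentose phosphate pathway that yields NADPH, stood at 54.9, 45.8, 58.5 and 37.8 CPM in CB-100 and 118, 118 and 110 CPM in sham, a log2 change of -1.23 (SE 0.17, adjusted p = 0.020 by edgeR). It was the 1 call among 11 genes of NADPH supply, of which 7 had estimates below 0 and 4 above. The groups did not overlap in 3 of those below 0 and in 1 above, Me1 (log2 change 1.26, adjusted p = 0.058 by edgeR). Cbr1, a carbonyl reductase (-1.01), Blvrb, a biliverdin reductase (-0.996), and Park7, an oxidation-sensing protein (-0.81), passed among 20 NRF2 partners and targets. Ethe1, a mitochondrial persulfide dioxygenase (-0.95), and Sephs2, which makes the selenium donor for selenoproteins (-0.73), completed the calls. Pgls and Sephs2 overlap other models and have non-whole counts.

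Ccs, the copper chaperone that loads Sod1, gave -0.78 without overlap (SE 0.20, adjusted p = 0.066 by edgeR). Selenop, the selenium transport protein, gave -0.36 (adjusted p = 0.23 by edgeR) and Bach1, a repressor that competes with NRF2, -0.27 (adjusted p = 0.32 by edgeR). Slc7a11, the cystine importer, had 1 to 13 counts per library and was not tested. The count of pathway genes that fell was 0 without CB-100 replicate 2, sham replicate 1 or sham replicate 3, and 8 without CB-100 replicate 4.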

How the data were processed

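RNA-seq of brown adipose tissue from 7 mice was used as deposited. Per the labels' protocols, STAR 2.7.9a was the aligner and Ensembl release 101 the reference; featureCounts 2.0.3, Salmon 1.5.2, Subread, edgeR and limma are named in the submitters' processing notes with no role, and the strand setting is not given in the sources used here. Expected counts, as the authors deposited them, are per gene and not normalized. Reads shared between genes can give non-whole values, and 14 of the 48 members have them in at least 1 library. Sod2, Glrx3 and Keap1 are among those that have them in all 7 libraries.

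Of 55774 lines, 287 repeated a gene identifier and were removed. Groups came from the treatment label. Expected counts were rounded, filtered with filterByExpr, scaled by TMM and tested on the group alone with edgeR 4.0.16 in R 4.3.3 (estimateDisp and glmQLFit, both robust, and glmQLFTest), two-sided, adjusted by Benjamini-Hochberg over 16823 genes. SE is the log2 change over the square root of F, and CPM are TMM-normalized. No pairing was used, since the animal codes are not shared between groups. All pairs of libraries within a group differed by more than sampling noise (chi-square over its degrees of freedom at least 28.7). Data for this comparison were also simulated (16452 genes). Of genes lowered by 1 and by 2 on the log2 scale 18% and 90% were recovered, and of those raised 18% and 80%, with 5 false calls of 108. The changed genes were few and drawn from all with a mean above 1 CPM, so recovery of these members, mostly more abundant, can differ.

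Coordinates, exon length and overlaps came from GENCODE M21 (GRCm38), and promoters from RefSeq GRCm38.p6. The members and lists were chosen with earlier results of these data known. Per-sample values are given for called members, for 14 members named whatever their result, for the smallest p in a group without calls, and for the 2 largest estimates above 0; from the pathway list up to 8 called genes and 6 fixed ones. Values of other genes named, and the choice among the called members for promoters (for each motif, the 2 with most matches), came after values were seen. Alternatives were other scalings and filters, DESeq2 1.42.0, limma voom 3.58.1 with quality weights, each library left out, females only, sex or a muscle score as covariate, gene classes left out, a correction for length and GC content (mgcv 1.9.3) and a threshold of 0.1.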

Additional observations from a re-analysis of the deposited data

Results flagged for a closer look

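In the 4 CB-100 libraries, 2 of the 48 members had 1 library far from the others, about the number that chance gives at 1 in 20 groups. Glrx stood at 10.0 CPM in CB-100 replicate 4, against 17.8 to 19.3 CPM in the other 3 libraries. Hmox1 stood at 7.58 CPM in the same library, against 3.67 to 4.20 CPM in the others.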

How the results depend on the processing

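The median log2 change of the members stayed between -0.65 and -0.47 in all 19 alternatives fitted. The counts of calls did not. With each library left out in turn, members called lower ran from 0 to 11 (12 on all libraries) and members called higher from 0 to 1, and pathway genes called lower from 0 to 8 and higher from 0 to 1. With sex as covariate, 6 members and 2 pathway genes were lower, and 0 and 0 higher. With the muscle score as covariate, and in females only, the 4 counts were 0 in edgeR (19 and 21 members lower at an unadjusted p under 0.05). With the length and GC correction, 0 members and 0 pathway genes were higher. Pathway genes called lower and higher were 15 and 3 without a filter, 17 and 3 in DESeq2, 13 and 3 in limma voom, and 17 and 3 at a threshold of 0.1. The causes were not tested, and fits that leave out libraries also rest on a smaller sample.

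Of 38 named genes over 19 alternatives, 2 of 722 values changed sign, both for Gclm, with a log2 change of 0.087 in females only and 0.057 without CB-100 replicate 3 (from -0.105 to 0.057 as libraries were left out). Of the rest, 542 kept their side of the threshold, 172 lost and 6 gained a call. The Mt1 to Mt2 ratio ran from -0.37 to 0.09 as libraries were left out. No paired analysis was possible because the groups share no animal codes. Limits are 3 or 4 mice a group and 1 male in each, counts shared between overlapping genes, and 18% recovery of simulated log2 decreases of 1, so that a gene short of the threshold is not shown to be alike in the groups.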
